A study of Zea mays with 13 samples.

Results

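H3K4me3 was compared across all gene models between drought-stressed (WS) and well-watered (NS) maize leaves at the end of a 10-day stress (T0). The comparison rests on 2 of the 13 samples of the series, chosen by their labels, with 1 library in each group. Plants of the inbred B73 were grown in a greenhouse with normal watering to the V5-V6 leaf stage. For 10 days stressed plants then received 25% and control plants 75% of disposable water, both at a salt concentration of 0.1 dS/m, and the immature wrapped leaf was taken. Chromatin was immunoprecipitated with an Active Motif antibody against H3K4me3. How many plants went into a library is not given in the sources used here, and no value below has a replicate check. The other H3K4me3 libraries of the series, WS and NS plants after 7 days of recovery (T7), served for scaling and as a check of the T0 libraries, and a library of whole chromatin from control plants gave the background. The tables name no gene model, so the tissue could not be checked against marker genes.

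H3K4me3, trimethylation of lysine 4 of histone H3, is laid down by COMPASS-type methyltransferases around the transcription start of active genes, and in plants its level follows transcription. H3K9ac, acetylation of lysine 9, is placed by histone acetyltransferases at the same promoters. H3K27me3 is written by Polycomb repressive complex 2 at silenced developmental genes. In Arabidopsis, drought is known to alter H3K4me3 at genes of the dehydration and abscisic acid responses.

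The table held 43943 features, 43789 gene models given by ID and 154 named microRNA genes. The WS T0 library held 2793985 counts and the NS T0 library 6876219, with a median of 40 and 93 counts per feature, so the stressed library set the precision. At T7 the WS library held 5980217 counts and the NS library 4059090. Counts were scaled by TMM (trimmed mean of M values) over these 4 libraries, and 35654 features with at least 40 counts in all were compared. A feature had to differ by 1.5-fold or more after scaling, and the exact conditional binomial interval of its ratio, at a 2-sided error of 0.001, had to leave out 1, which is called the rule of size here. The intervals printed are at 95%, for counting error only, and exact unless named otherwise. With 1 library per group there was no test of drought itself.

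TMM scaling centres the ratios near 0, so their median cannot show whether H3K4me3 was similar at most genes. The median log2 ratio of WS over NS was 0.01 (-0.76 with scaling on the genes of lowest enrichment). Ratios between the 25th and the 75th percentile ran from -0.19 to 0.29. The upper side was wider than the lower one, with 1.13 at the 95th percentile against -0.49 at the 5th. H3K4me3 was higher in the stressed leaf at 443 features, 1.24% of those compared, and lower at 259, 0.726%. Higher features reached larger folds: 125 of them passed 3-fold, against 3 lower ones, and 72 passed 4-fold, against 1.

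The excess of higher features depends on the scaling. With total counts in place of TMM, 523 features were higher and 169 lower. Scaling on the genes with the lowest enrichment moved all log2 ratios by -0.77 and gave 28 higher and 18165 lower.

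Higher and lower features were then split by whether they carried the mark. A gene was called marked when its counts over whole chromatin were at least 2-fold above the 25th percentile in all 4 libraries, which held for 26156 genes. Of the 259 lower features 253 were marked, but of the 443 higher ones 193 were, against 73.4% of all features compared. This definition takes in the T0 libraries that chose the features. With the T7 libraries alone, an alternative chosen after seeing the data, 258 of the 259 lower and 200 of the 443 higher features were marked, against 74.7% of all features compared. The higher features fell into 3 groups of similar size: 190 marked genes, 116 genes without the mark, and 137 features with over 200 whole-chromatin counts in the 1 kb start window, of which 3 were marked. The last group is a small class of the genome, 255 of the features compared (0.715%), against 30.9% of the higher and 0% of the lower features.

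The 190 marked higher genes had a median log2 ratio of 0.90, with median counts of 87.5 in the WS library and 111 in the NS library. The 116 higher genes without the mark had larger ratios on far fewer counts, a median of 2.07 with 18 counts in WS and 10 in NS. The 137 higher features of high whole-chromatin count had a median of 1.04, between 0.62 and 2.09, with 140 counts in WS and 168 in NS. The 253 marked lower genes had a median of -0.70, with 76 counts in WS and 295 in NS. With this scaling lower features were thus almost all marked genes, while higher features included genes with and without the mark. The marked share of the higher features depends on the setting, as given below for removal of the trend on enrichment. At T7 the marked lower genes had median counts of 210 in WS and 145 in NS, near the 198 and 134 of all marked genes. Genes without the mark had medians of 10 counts in WS T0 and 16 in NS T0, too few for most to be called lower. In the class of fewest counts over the 4 libraries, 94 of 7596 features were higher and 0 lower. The split therefore cannot show whether H3K4me3 was also lower at genes without the mark.

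**Figure D1:**
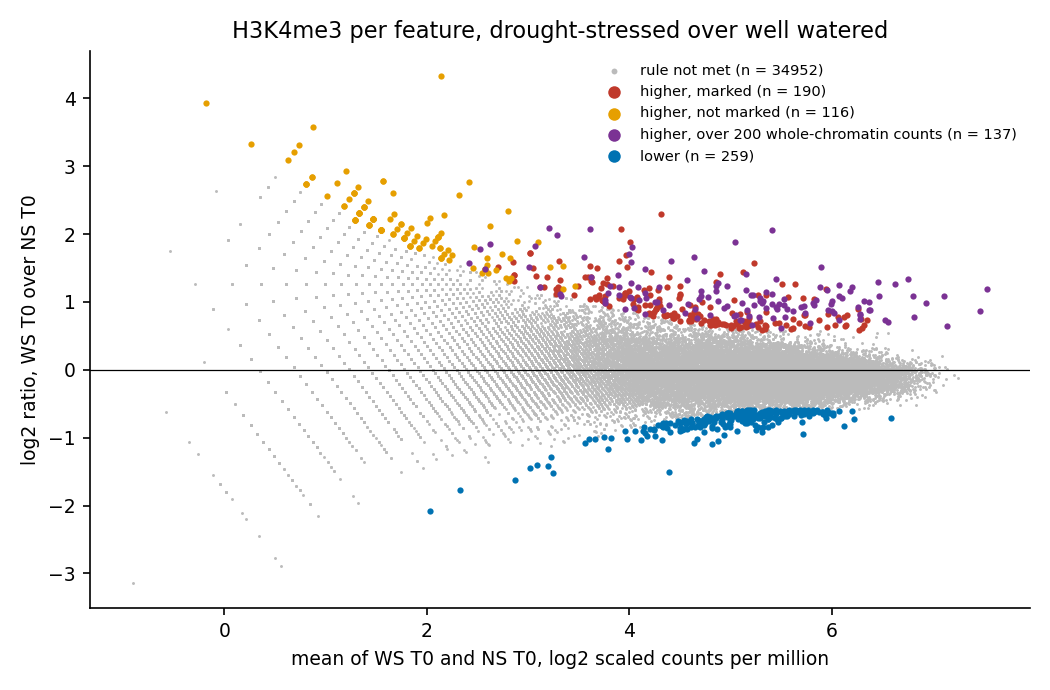
Each point is a feature, with the mean of WS T0 and NS T0 in log2 scaled CPM on the x axis and the log2 ratio of WS T0 over NS T0 on the y axis. The 116 higher genes without the mark lie at low counts, the 190 marked and 137 high whole-chromatin ones at middle and high counts, and the 259 lower features form a band that starts at -0.59.

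Of the higher features, the gene with the interval furthest above 0 was Zm00001d040747, whose function is not given in the tables. It held 54 H3K4me3 counts in WS T0 and 6 in NS T0, and 17 and 21 in WS and NS at T7. As scaled CPM (counts divided by the TMM-adjusted library size) these were 19.5 in WS T0 and 0.907 in NS T0, then 2.82 and 5.21 at T7. WS T0 was far above the other 3 libraries, whose values were all low, and the log2 ratio at T0 was 4.33 (3.21 to 5.94). The gene was not called marked, and its log2 enrichment over whole chromatin was -1.49 even in WS T0. In whole chromatin it held 169 counts in the 1 kb start window, not far under the limit of 200 used above, and 12 over the whole gene. The medians over all features compared were 67 and 172. H3K9ac was on the same side, with 43 counts in WS and 21 in NS (log2 ratio 1.20, 0.43 to 2.04).

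Among marked higher genes the corresponding one was Zm00001d042922. It held 43.8 scaled CPM of H3K4me3 in WS T0 (121 counts) and 8.92 in NS T0 (59 counts), against 15.3 and 18.9 in WS and NS at T7. WS T0 stood above and NS T0 below both T7 libraries, and the log2 ratio at T0 was 2.29 (1.84 to 2.77). H3K9ac had 42 counts in WS and 24 in NS, a log2 ratio of 0.98 (0.23 to 1.78). For H3K27me3 the counts were 30 and 26, and the interval of the ratio took in no difference (0.25, -0.55 to 1.07).

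At the lower end, Zm00001d011912 held 12.3 scaled CPM in WS T0 (34 counts) and 35.2 in NS T0 (233 counts), with 21.2 and 25.6 in WS and NS at T7. Here WS T0 was the lowest and NS T0 the highest of the 4 libraries, and the log2 ratio was -1.5 (-2.08 to -0.99). The next marked lower gene, Zm00001d046995, held 37.6 scaled CPM in WS T0 (104 counts) and 72.7 in NS T0 (481 counts), with 47.4 and 52.1 in WS and NS at T7. It had the same order of libraries and a log2 ratio of -0.94 (-1.27 to -0.64). H3K9ac lay below 0 at both genes, but its intervals took in 0: -0.45 (-1.29 to 0.33) and -0.29 (-1.13 to 0.52). H3K27me3 lay above 0 at both, at 0.79 (-0.06 to 1.70) and 0.41 (-0.40 to 1.25), again with 0 inside the intervals.

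**Figure D2:**
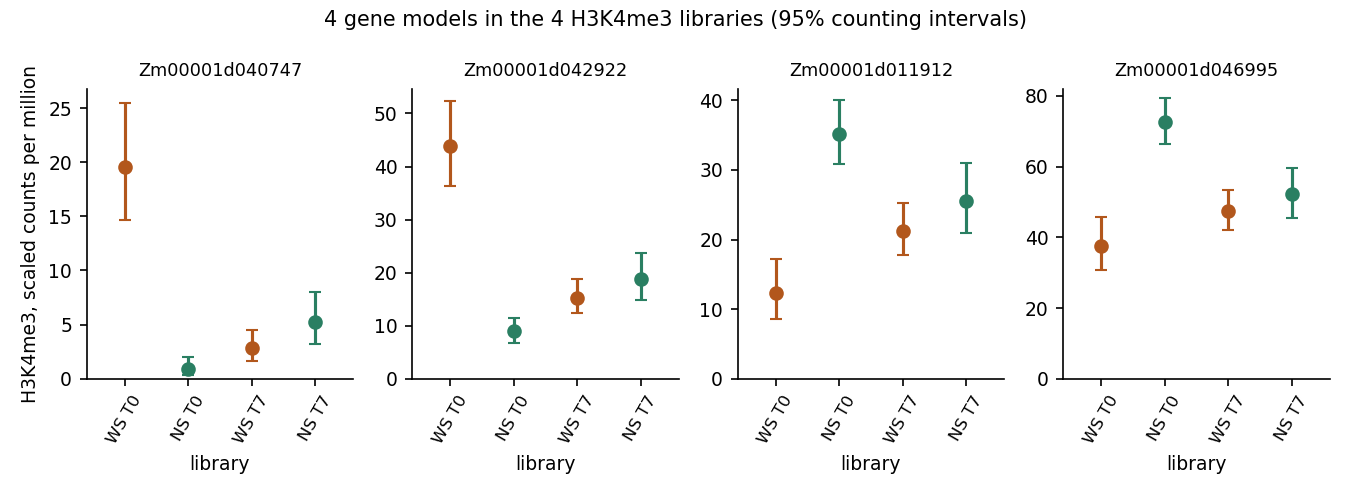
Scaled H3K4me3 CPM (y axis) of 4 gene models in the libraries WS T0, NS T0, WS T7 and NS T7 (x axis), with points for the library and bars for the 95% Poisson counting interval. WS T0 stands above the other libraries at the left pair of genes and below them at the right pair, with the T7 libraries between WS T0 and NS T0 at all 4 genes.

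Ratios of single genes have to be read against the strength of the mark, since weakly and strongly enriched genes differed as a whole. In the quintile of genes with the lowest H3K4me3 enrichment the median log2 ratio of WS over NS was 0.63, and 205 genes were higher and 0 lower. The next quintile had a median of 0.13, with 108 higher and 15 lower genes. The 3 upper quintiles had medians of -0.03, -0.07 and -0.10, and more lower than higher genes in each: 51 higher and 86 lower, 47 and 87, and 32 and 71. Quintiles formed from the T7 libraries, which did not enter the ratio, gave the same medians at 2 decimals. With quintiles of enrichment over whole-gene counts the medians ran from 0.32 to -0.06, and with quintiles of H3K9ac enrichment, chosen after seeing the data, from 0.40 to -0.09.

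H3K9ac at T0 followed the same order, with medians of 0.36 in the quintile of lowest H3K4me3 enrichment and -0.24 in that of highest. H3K27me3 did not: its medians stayed between -0.02 and 0.03 in all 5 quintiles.

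The libraries differed in the same direction. Contrast, defined as enrichment at the 95th percentile of genes divided by that at the 25th, was 22.8 in WS T0 and 40.1 in NS T0, against 22.4 and 23.0 in WS and NS at T7. Genes without the mark took 5.96% of counts in WS T0 (Wilson 95% interval 5.94 to 5.99) and 3.98% in NS T0 (3.967 to 3.996), against 6.19% and 6.10% in WS and NS at T7. By these measures NS T0 stood apart from the other 3 libraries. By the fold of the 90th over the 50th percentile it did not, with 3.78 in WS T0 and 4.17 in NS T0 against 3.76 and 4.04 in WS and NS at T7. NS T0 was also the deepest library and WS T7 the next in depth, and the part of depth in the contrast was not tested. The part of library contrast in the ratios was not tested, and in this design a library and its watering cannot be told apart. With the trend on enrichment removed, 281 features were higher and 161 lower, of which 226 and 138 were among those above, and all 4 gene models named here met the rule. Of the 281 higher features 229 were marked, and of the 161 lower ones 141, against 193 of 443 and 253 of 259 without that step. The shortage of marked genes among higher features was thus not seen in that setting.

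**Figure D3:**
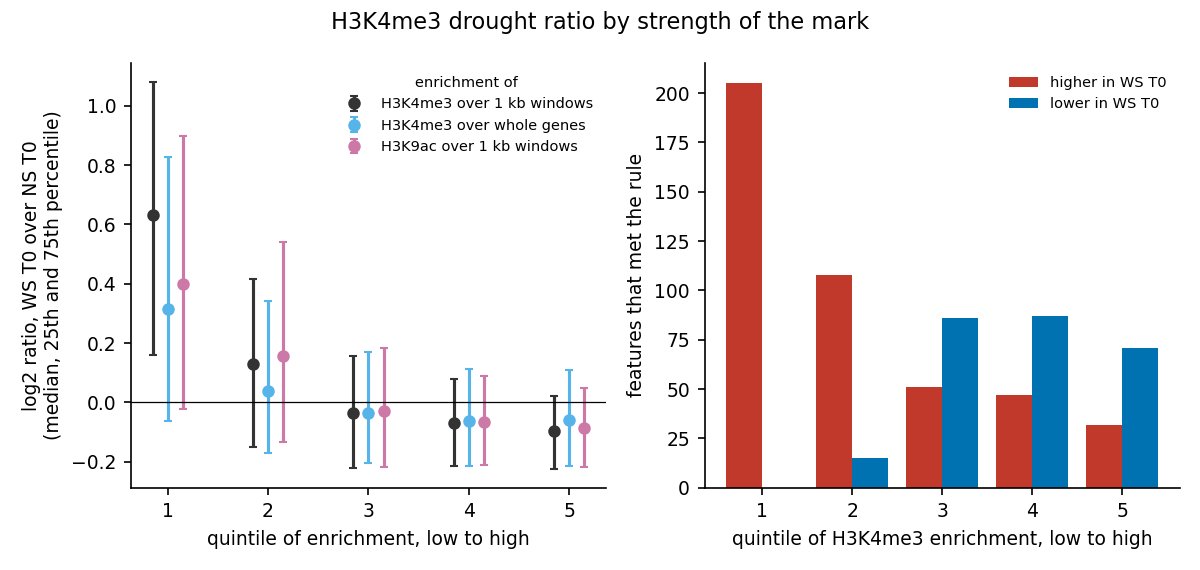
Left, the median log2 ratio of WS T0 over NS T0 (points, with bars from the 25th to the 75th percentile) by quintile of enrichment, for enrichment of H3K4me3 over 1 kb windows, of H3K4me3 over whole genes and of H3K9ac. Right, the number of genes higher (left bars) and lower (right bars) in WS T0 by quintile of H3K4me3 enrichment: higher genes fall in number from 205 to 32, and lower genes are most frequent in the 3 upper quintiles.

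More features met the rule for each T0 library against the summed T7 libraries than for the T7 libraries against each other. These comparisons are unlike, since the sum is deeper than a single T7 library and depth sets the counting intervals. T0 and T7 plants are also 7 days apart, with recovery in the WS plants. The part of depth and of time in these counts was not tested. Against the summed T7 libraries WS T0 was higher at 686 features (1.92%) and lower at 188 (0.527%), and 636 and 171 of these were marked. NS T0 was higher at 632 (1.77%) and lower at 608 (1.71%), and of the lower ones 180 were marked. WS and NS at T7 differed from each other at 35 features higher (0.0982%) and 33 lower (0.0926%) in WS. Both T0 comparisons share the T7 libraries. The median of the quintile of lowest enrichment was 0.01 for WS T0 and -0.60 for NS T0, and that of the highest 0.05 and 0.15.

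The 3 groups of higher features differed in their place beside T7. At the 193 marked higher genes WS T0 lay above both T7 libraries at 187, and NS T0 lay below both at 124. Relative to the mean of both T7 libraries, the medians of the 190 among them with up to 200 whole-chromatin counts were 0.74 for WS T0 and -0.21 for NS T0 on the log2 scale. At these genes the larger deviation was in the stressed library. That library is also the shallower of the T0 pair, and the genes had been chosen on the ratio of the pair. The 116 higher genes without the mark deviated in both libraries, with medians of 0.92 for WS T0 and -1.14 for NS T0.

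The 137 features with over 200 whole-chromatin counts were the opposite case. NS T0 lay below both T7 libraries at all 137, while WS T0 lay above both at 35, with medians of -0.09 for WS T0 and -1.11 for NS T0. Summed over all 255 features of this class, scaled CPM were 10593 in WS T0 and 5753 in NS T0, against 10417 and 12341 in WS and NS at T7. The whole class moved together, 98.4% of it lying above 0 for WS over NS at T0. Without this class, an alternative chosen after seeing the data, 306 features were higher and 259 lower. At the lower features WS T0 lay below both T7 libraries at 232 of 259 and NS T0 above both at 229, with medians of -0.41 for WS T0 and 0.32 for NS T0. These places are a description, since the features had been chosen on the ratio of the T0 libraries.

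**Figure D4:**
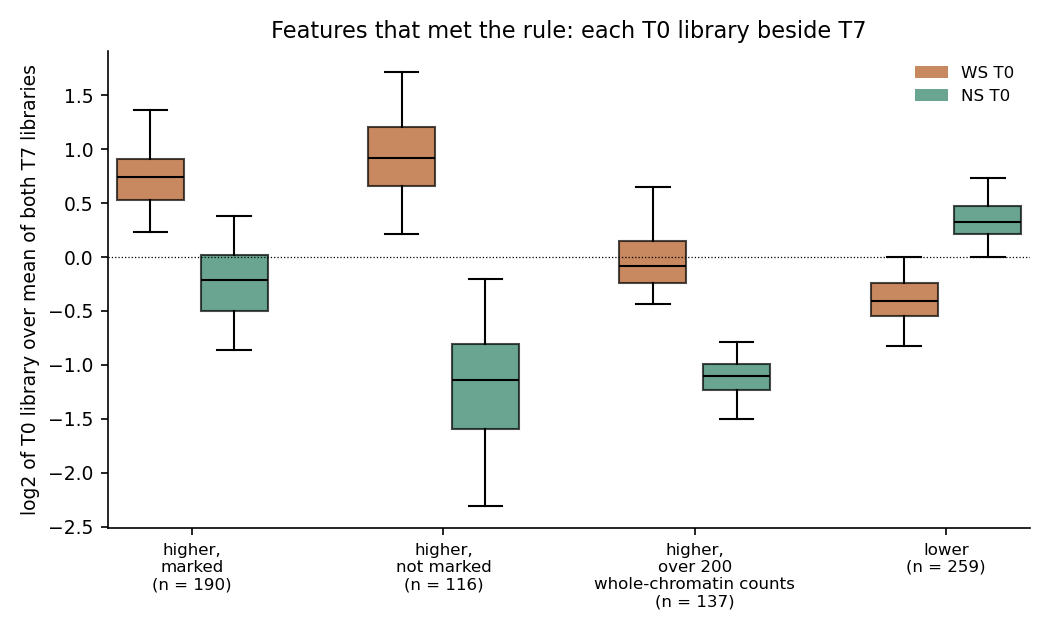
Log2 ratio of each T0 library over the mean of both T7 libraries (y axis), for the 3 groups of higher features and the lower ones (x axis), with boxes from the 25th to the 75th percentile, lines at the median and whiskers from the 5th to the 95th percentile. At the 137 features of high whole-chromatin count WS T0 sits at T7 and NS T0 lies more than 2-fold below it at the median, while at the 190 marked higher genes WS T0 is the library further from T7.

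Some of these features stood beside each other in the order of the deposited table. Of the 443 higher features 100 (22.6%) were next to another higher one, against 10 of 259 lower ones (3.86%) next to another lower one. The higher ones included runs of features with over 200 whole-chromatin counts, as from Zm00001d018162 to Zm00001d018176. The share for features drawn at random was not computed. Whether the count windows of neighbours overlap is not given in the sources used here. In whole chromatin, marked higher genes had a median of 2.16 whole-gene counts for each count in the 1 kb window and marked lower genes 3.57, against 3.19 over all marked genes, so that lower genes were the longer ones by this measure.

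Genes were then grouped by the marks they carried. Of 12764 genes with H3K4me3 and H3K9ac, the usual state of an active gene, 52 (0.407%) were higher and 110 (0.862%) lower in WS, with a median log2 ratio of -0.08. Genes with H3K4me3 alone, 9258 in number, held 101 higher (1.09%) and 122 lower ones (1.32%). Lower genes were thus spread over both large classes of H3K4me3 genes. Among the 2801 genes with H3K4me3 and H3K27me3 21 were higher (0.750%) and 6 lower (0.214%), and among the 430 with all 3 marks 12 were higher (2.79%) and 4 lower (0.930%). The 830 genes with H3K27me3 alone had 26 higher and 0 lower, with a median of 0.37, and the 7334 with none of the marks 186 higher and 6 lower, with a median of 0.52. These are 3.13% and 2.54% higher, against 1.24% of all features compared, where 0.726% were lower. By definition these last classes are without the H3K4me3 mark, and over all genes without it the median was 0.50. Of the 250 higher features without the mark, 134 (53.6%) had over 200 whole-chromatin counts. H3K27me3 was carried by 10.2% of the 137 higher features of high whole-chromatin count and by 10.3% of the 116 higher genes without the mark. The part of either in the shares was not tested.

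The marked higher and lower genes differed in the other marks they carried. H3K27me3 was carried by 17.1% of the marked higher genes and by 3.95% of the marked lower genes, against 12.4% of all marked genes. H3K9ac was carried by 33.7% of the marked higher and 47.0% of the marked lower genes, against 51.8% of all marked genes.

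H3K9ac, read from other libraries than those that chose the genes, lay on the same side as H3K4me3 at most marked genes. Of the 193 marked higher genes, 149 had an H3K9ac log2 ratio of WS over NS above 0 (77.2%, 70.6 to 82.9), against 37.6% of all marked genes. Their median was 0.35, against -0.12 over all marked genes. Of 252 marked lower genes with H3K9ac measured, 194 lay below 0 (77.0%, 71.3 to 82.0), against 62.4% of all marked genes, and their median was -0.28. Against all marked genes, lower genes thus stood less far off than higher genes did. That baseline is not matched for strength of the mark, with which H3K9ac ratios fell, from a median of 0.36 in the lowest H3K4me3 quintile to -0.24 in the highest. With the trend on 1 kb enrichment removed from both marks, the shares were 76.9% of 229 higher and 76.4% of 140 lower genes. The share over all marked genes was not computed there. With a filter at 200 counts the share was 95.6% of 45 higher genes and 59.4% of 32 lower genes.

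Differences of H3K9ac large enough to meet the rule were rare. Over all features H3K9ac met it as higher in WS at 0.441% and as lower at 0.831%. Among the marked higher genes 8 of 193 were also higher for H3K9ac (4.15%, against 0.226% of all marked genes) and 0 lower. Among the marked lower genes 9 of 252 were also lower for H3K9ac (3.57%, against 1.30%) and 0 higher. Whether the libraries of both marks came from the same chromatin is not given in the sources used here.

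Genes without the mark gave a weaker reading for H3K9ac. Of the 116 higher ones, 93 lay above 0 (80.2%) with a median of 0.37, but 73.4% of all genes without the mark did, with a median of 0.32. Of the 137 features of high whole-chromatin count, 136 lay above 0 (99.3%) with a median of 0.50, and of the whole class 96.1% did. H3K9ac therefore set the 116 genes apart from their class much less than it set the marked higher genes apart. For the 137 features the comparison cannot tell, since they are part of the 255 of their class, which lay almost wholly above 0.

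H3K27me3 differed little at the marked genes. Over all features it met the rule as higher in WS at 0.109% and as lower at 0.103%. At the marked higher genes its median log2 ratio was -0.05, with 79 of 167 above 0 (47.3%), and at the marked lower genes -0.01, with 48.9% above 0, against 0.01 and 50.6% over all marked genes. The rule was met for H3K27me3 by 1 of the marked higher genes, as lower, and by 0 of the marked lower genes. At the 137 higher features of high whole-chromatin count H3K27me3 lay above 0 at 64 of the 84 measured (76.2%, 65.7 to 84.8), with a median of 0.15, and in their whole class at 69.3%. At the 116 higher genes without the mark it lay above 0 at 38 of 76.

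MicroRNA genes are the features that the tables name. They give rise to the small RNAs that set transcription factors and nutrient uptake in leaves, and many are low in H3K4me3: of 116 compared, 36 were marked. Of these 116, 0 met the rule, where over all features 1.24% met it as higher and 0.726% as lower, a share that comes to few of 116 genes. Each value below is therefore given as a value, and no gene is called changed. The median log2 ratio of WS over NS was 0.20 (-0.57 with scaling on background genes), with 68 above 0 and 48 below. It was -0.08 at the 36 marked genes and 0.31 at the 80 without the mark, the same split by strength of the mark as over all features. Members of a family have near-identical mature sequences, and 22 pairs lie next to each other in the reference annotation, so reads may be shared between them.

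The highest ratio was that of zma-MIR395b, from a family that acts on sulfate assimilation, with 10 counts in WS and 6 in NS (1.95, 0.39 to 3.74). Next came zma-MIR171a, of a family that targets GRAS factors, with 11 and 8 counts (1.70, 0.27 to 3.24). They were followed by zma-MIR169r (8 and 6 counts, 1.65), zma-MIR2118b (9 and 7, 1.60), zma-MIR399f (15 and 14, 1.36), zma-MIR169n and zma-MIR393b (7 and 7 each, 1.26) and zma-MIR159h (9 and 10, 1.12). All 8 were without the mark and had at most 15 counts in WS.

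The lowest ratio was that of zma-MIR160d, of a family that targets auxin response factors, with 1 count in WS and 19 in NS (-2.44, -8.37 to -0.34). The best measured of the 8 lowest was zma-MIR166d, whose family restricts HD-ZIP III factors and so sets leaf polarity. It held 19 counts in WS and 86 in NS at T0 and 92 and 64 in WS and NS at T7, and the log2 ratio at T0 was -0.89 (-1.72 to -0.19). The others were zma-MIR396b (5 and 30 counts, -1.21), zma-MIR171c (3 and 18, -1.14, -3.73 to 0.45), zma-MIR159d (3 and 16, -0.98, -3.58 to 0.65), zma-MIR171f (6 and 26, -0.77), zma-MIR166k (8 and 34, -0.76) and zma-MIR396f (11 and 45, -0.72). The intervals of these 6 took in 0, and none of the 8 was marked.

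Summing the members gave more counts per family. Of 26 families, the interval of the summed ratio lay above 0 at 7 and below 0 at 1. The family below 0 was MIR396, which restricts growth-regulating factors and with them cell proliferation in the leaf. It held 394 counts in WS and 1210 in NS (-0.36, -0.53 to -0.19), and 1102 and 815 in WS and NS at T7. Its 3 marked members lay on the same side: zma-MIR396d with 168 and 526 counts (-0.38, -0.65 to -0.13), zma-MIR396a with 51 and 157 (-0.35, -0.85 to 0.10) and zma-MIR396c with 133 and 389 (-0.29). The H3K9ac log2 ratios of these 3 were also below 0, at -0.21, -0.36 and -0.19, with 0 inside each interval.

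Of the families above 0, MIR156, which targets SPL factors and holds plants in the juvenile phase, had the most counts. It held 546 counts in WS and 1112 in NS (0.23, 0.08 to 0.38, but -0.53 with scaling on background genes), and 8 of its 11 members were marked. Among its members zma-MIR156d, with 126 counts in WS and 235 in NS, had a ratio of 0.36 (0.04 to 0.68). MIR164, whose targets are NAC factors of organ boundaries, held 161 and 304 counts (0.34, 0.06 to 0.62, but -0.42 with scaling on background genes). MIR162, which acts on DCL1 of the microRNA pathway itself, held 63 and 107 (0.50, 0.02 to 0.96, but -0.26 with that scaling). These families included marked genes, but in MIR164 only 2 of 8 members were marked. Over all marked genes the median was -0.05, and over all genes without the mark 0.50.

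The other families above 0 had no marked member. MIR169, which targets NF-YA subunits, held 120 counts in WS and 197 in NS (0.55, 0.20 to 0.88, but -0.22 with scaling on background genes), and MIR395 49 and 78 (0.59, 0.04 to 1.12, but -0.17 with that scaling). MIR319, which targets TCP factors, held 35 and 48 (0.81, 0.13 to 1.46), and MIR2118, a trigger of phased small RNAs, 49 and 65 (0.86, 0.29 to 1.41), and both were near 0 with that scaling, at 0.04 and 0.09. Over all genes without the mark the median was 0.50, so these ratios lay near that of their class. The sums also take in members below the filter on counts. It was passed by 11 of 17 members of MIR169, 2 of 13 of MIR395, 3 of 4 of MIR319 and 5 of 7 of MIR2118. Signs of the 8 families held under scaling by total counts, by DESeq2 size factors and by TMM over the T0 libraries.

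Families of phosphate and copper homeostasis lay near 0 or had wide intervals. MIR399, which acts on the phosphate regulator PHO2, held 218 counts in WS and 546 in NS (-0.06, -0.30 to 0.16), and MIR827 62 and 157 (-0.07, -0.53 to 0.35). The copper families MIR397, MIR398, MIR408 and MIR528 held 13 to 27 counts in WS and 21 to 55 in NS, and their ratios ran from 0.18 to 0.69 with 0 inside every interval.

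**Figure D5:**
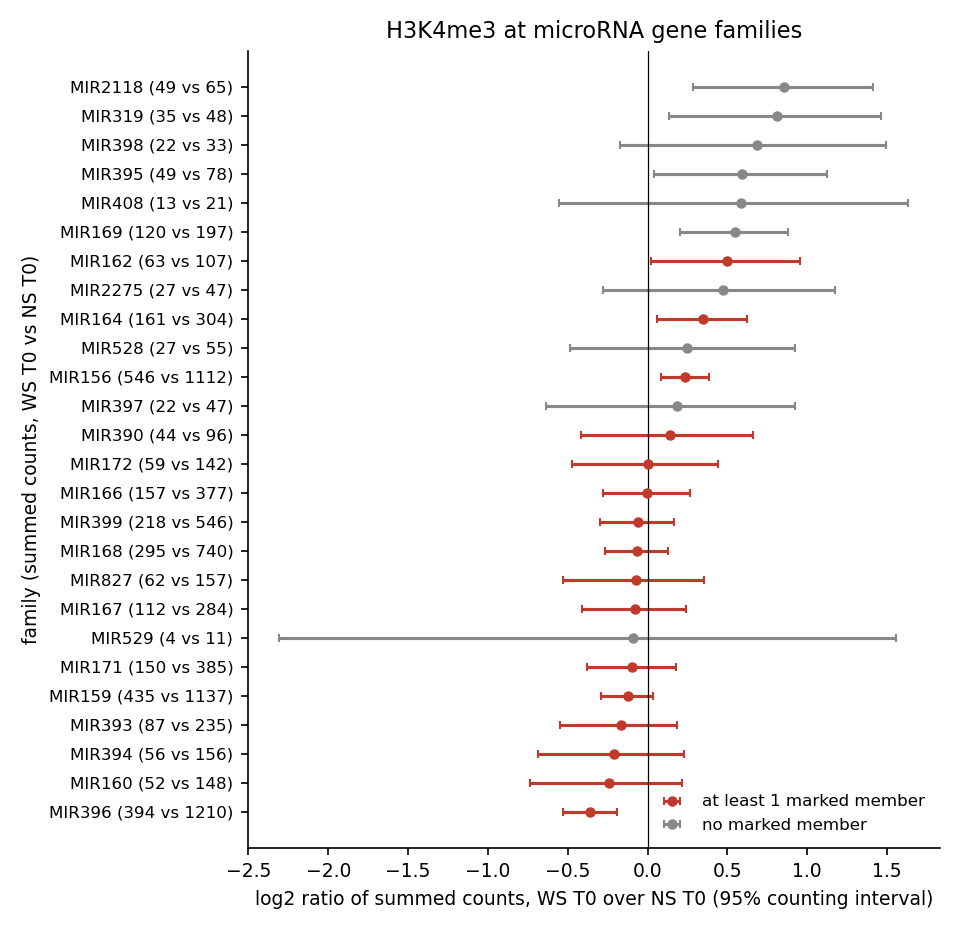
Log2 ratio of summed H3K4me3 counts of WS T0 over NS T0 (x axis) for 26 microRNA gene families (y axis, with the summed counts of WS and NS), with points for the ratio and bars for the 95% counting interval. The bars of 7 families lie above 0, of which 5 have a ratio below 0 with scaling on background genes, and that of MIR396 lies below it. The uppermost families have no marked member, shown in grey.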

How the data were processed

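Raw read counts per feature were deposited, not normalized, per the labels, in a table for each mark and 1 for whole chromatin. CASAVA 1.8, Bowtie2 and the genome B73 RefGen_v4 are named in the submitters' processing notes. The counting program, the count window of the marks, strand and duplicate removal are not stated there or in the labels, so the use of the 1 kb start window of whole chromatin as background for H3K4me3 and H3K9ac is an assumption. Whole-gene counts were used for H3K27me3 and as an alternative. Groups were taken from the labels.

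From the counts, TMM factors (edgeR 4.0.16, limma 3.58.1, R 4.3.3), log2 ratios with a prior of 0.5 counts, and exact Clopper-Pearson intervals (Python 3.11.15, scipy 1.17.1) were computed. Library sizes were summed over features with at least 40 counts over the 4 libraries of a mark. Enrichment needed at least 20 whole-chromatin counts. Trends were removed by lowess with a fraction of 0.3 (statsmodels 0.14.6). DESeq2 1.42.0 gave size factors only. The steps were tested on simulated data.

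Gene models named in the text are 2 in each direction: the feature with the bound nearest 0 of its calling interval furthest from 0, and the next such gene among marked ones. MicroRNA genes named are the 8 highest and 8 lowest ratios among those compared, and listed families by their summed counts, with single members of MIR396 and MIR156 chosen after their values were seen. None of the 43789 gene model IDs (0) matched the reference of the Zm-B73-REFERENCE-NAM-5.0 assembly, and 153 of 154 microRNA names did. The members, lists and rules were chosen with earlier results of these data known.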

Additional observations from a re-analysis of the deposited data

How the results depend on the processing

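Several results depend on the setting, and for each the cause was not tested. With total counts 169 features were lower, and with the trend on abundance removed 168. With the trend on 1 kb enrichment removed 281 were higher and 161 lower, and scaling on background genes gave 28 and 18165. At least 2-fold gave 276 and 20, the 95% interval in the rule 1949 and 586, a filter of 200 counts 122 lower ones, and no filter 448 and 382. The highest minus the lowest enrichment quintile gave a median difference of -0.73 in log2, against -0.0387 with the trend on abundance removed, -0.00416 with that on 1 kb enrichment and -0.42 with that on whole-gene enrichment. It was -0.91 without a filter, -0.14 with a filter of 200 counts, -0.76 with a prior of 2 counts, -0.38 with whole-gene quintiles and -0.49 with H3K9ac quintiles, which were chosen after seeing the data. Contrast of WS T0 over that of NS T0 was 0.568, 0.721 over whole genes and 0.909 for the 90th over the 50th percentile.

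H3K9ac lay on the same side at 100% of 7 higher and 94.95% of 17963 lower marked genes with scaling on background genes, at 95.6% and 59.4% with a filter of 200 counts, at 84.5% of the higher ones at 2-fold and at 68.3% of the lower ones with the 95% interval. With genes marked in both T7 libraries, chosen after seeing the data, the shares were 77.5% and 75.9%. The median of the microRNA genes was -0.57 with scaling on background genes, -0.15 with the trend on abundance removed, -0.18 with that on 1 kb enrichment and -0.00971 with a filter of 200 counts, against 0.20. MicroRNA genes that met the rule numbered 19 with scaling on background genes and 1 with the trend on abundance or on 1 kb enrichment removed. All 4 named gene models kept their call wherever a scaling or trend gave a value, and Zm00001d040747 had none with the whole-gene trend removed or the filter of 200 counts. Of 143 alternatives for single features 3 moved beyond the counting interval, all at named gene models with scaling on background genes. These were Zm00001d042922 (1.52), Zm00001d011912 (-2.26) and Zm00001d046995 (-1.71). A reversal was counted only for features that met the rule, so for the 4 gene models and no microRNA gene, and 0 reversed. The microRNA genes have wide intervals, so that few of their values could move beyond them. No paired analysis was possible because each group had 1 library. Depth limits the weak genes: the 95% interval of the log2 ratio reached 1.40 to either side, at the median, in features of the lowest count class and 0.28 in the highest.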

Other observations

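Below the filter on counts, the neighbouring sulfate microRNA genes zma-MIR395n, zma-MIR395o and zma-MIR395p, chosen after their values were seen, held 3 H3K4me3 counts together in WS T0 and 31 in NS T0, against 44 and 28 in WS and NS at T7. The log2 ratio at T0 was -1.91 (-4.46 to -0.43). The family as a whole had a ratio of 0.59, so these neighbours lay on the other side of 0 from their family's sum. They may share reads, and the difference was not tested.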
